A study of Mus musculus with 36 samples.

Results

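Solute carriers are membrane proteins that move amino acids, ions, metals, organic acids, nucleobases and other small molecules across the plasma membrane and the membranes of organelles. The genes described here are the solute carriers outside mitochondria that were well expressed in the mouse heart at any stage from midgestation to old age. They were chosen by their level: from genes with a symbol starting with Slc and a digit, the mitochondrial Slc25 family and 9 other carriers (mostly of glucose, lactate, creatine, fatty acids and sodium-calcium exchange) were left out. Each gene was read from the probe set with the highest mean over all arrays and was kept where the mean of the 3 arrays of a stage exceeded 8 on the log2 scale in at least 1 of 12 stages. This left 17 of 296 genes, among 20701 genes on the array. All 296 are called carriers here by their symbol, although 5 of them, *Slc9a3r2* included, encode no transporter, and *Slc36a1os* and *Slc6a19os* are named as opposite-strand transcripts. Because the level chose them, their levels are given as a description without a test.

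Hearts of OF1 mice, an outbred strain, with no genetic change or treatment in the labels, were profiled daily between E10.5 and E19.5, in young adults of 10 weeks and in old adults, on 36 Affymetrix arrays of 45101 probe sets, 3 per stage. The old adults were 10 months old by the methods of the study and 14 months by the sample labels. At E10.5 and E11.5 the 3 arrays held hearts of mixed sex. From E12.5 on each stage had 1 female, 1 male and 1 mixed array, and by the methods a female or male fetal array held 1 pup. Values are log2 intensities on which the authors had run the robust multi-array average (RMA), so a difference of 1 is 2-fold.

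The tissue label held up against markers. The mean log2 level of 5 cardiomyocyte markers was between 10.7 and 11.4 on the E14.5 arrays and between 11.2 and 11.3 on the young adult arrays. The 4 liver genes, checked because an extraction protocol in the labels names liver, stayed between 3.30 and 3.42 at E10.5 and between 3.81 and 4.01 in young adults. Array medians ran from 4.0 to 4.2, the correlation between arrays of a stage from 0.969 to 0.996, and no pair of arrays was identical. The mean of 18 probe sets for hybridization controls, bacterial transcripts added to each sample in fixed amount, moved with stage: it was 9.68 to 10.3 at E10.5, 11.0 to 11.4 at E19.5, 12.0 to 12.4 in young adults and 11.2 to 11.6 in old adults. The E12.5 female and male arrays both carried *Xist* and Y chromosome transcripts, and the E15.5 male array carried *Xist* at 7.34, so these 3 arrays went against their sex label.

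In the growing heart, amino acid carriers feed protein synthesis. Cation-chloride cotransporters set cell volume and intracellular chloride, and anion exchangers return cytosolic pH after an alkaline load. Zinc, phosphate, choline and taurine have carriers of their own, and a taurine carrier keeps this osmolyte at a high concentration in heart muscle.

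The 17 genes carry a range of substrates. Amino acids and peptides had 6 of 62 carriers, *Slc38a1*, *Slc38a2*, *Slc38a4*, *Slc38a10*, *Slc6a6* and *Slc7a1*, and 4 of these belong to the Slc38 family of 9 genes. Sodium, potassium, chloride and calcium had 2 of 16 (*Slc12a2* and *Slc12a7*), and metals and heme 2 of 33 (*Slc39a1* and *Slc39a10*). Monocarboxylates, organic ions and carnitine had 2 of 43 (*Slc16a12* and *Slc47a1*). One gene each came from acid-base transport (*Slc4a3*, 1 of 27) and from phosphate and sulfate (*Slc20a1*, 1 of 12). Nucleosides and nucleobases (*Slc43a3*, 1 of 6) and lipids, choline and vitamins (*Slc44a1*, 1 of 22) also had 1 each. *Slc9a3r2* carries the prefix but encodes a scaffold protein (NHERF2) that binds sodium-proton exchangers and other membrane proteins. None of the 27 carriers of nucleotide sugars and acetyl-CoA or of the 27 sugar and polyol carriers left after the exclusions passed. Neither did any of the 12 remaining Slc6 genes, grouped under neurotransmitter amines and GABA. Just inside the limit were *Slc12a7* with 8.09 at E19.5 and *Slc39a1* with 8.05 at E10.5, and just outside were *Slc30a9* with 7.97 and *Slc44a2* with 7.96. A stage mean above 5, the lower limit at which the study counted a gene as expressed, was reached by 136 of the 296 carriers.

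**Figure D1:**
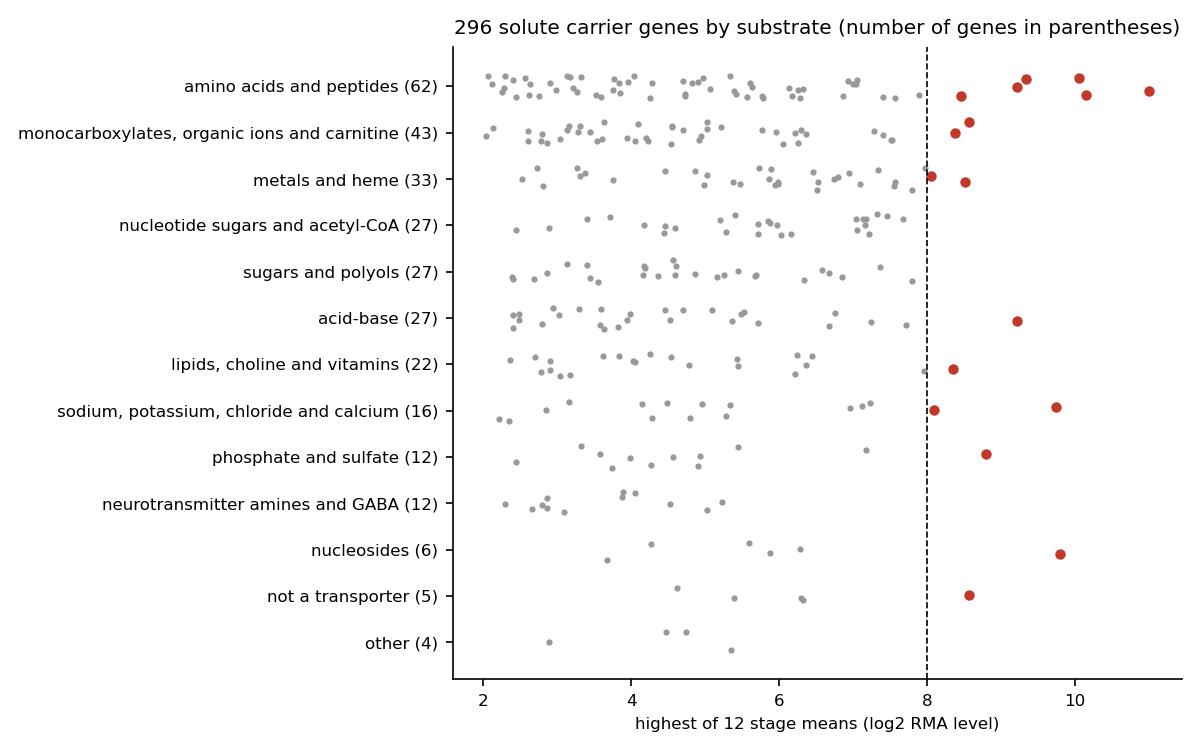
Each point is 1 of 296 solute carrier genes, placed by the highest of its 12 stage means (horizontal axis, log2 RMA level) and its substrate group (vertical axis, number of genes in parentheses); points are spread vertically only to separate them. The dashed line marks the limit of 8, and the 17 genes above it (red) include 6 amino acid carriers. Probe sets differ in how well they bind, so the distance between genes is no ratio of their transcripts.

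Of the 17 genes, *Slc12a2*, *Slc38a2*, *Slc38a10* and *Slc6a6* stayed above 8 in all 12 stages, and *Slc12a7* and *Slc44a1* passed in 1 stage only. The range between the highest and lowest stage mean of a gene went from 0.73 for *Slc39a1* to 6.86 for *Slc38a4*, with a median of 2.01. The highest stage mean lay in old adults for 5 genes and at E10.5 for 4. All 30 embryonic arrays lay above all 6 adult arrays for 4 genes (*Slc38a1*, *Slc38a2*, *Slc38a4* and *Slc47a1*) and below them for 1 (*Slc43a3*). Among the 3273 genes on the array that passed the same level limit, 20.7% lay wholly above and 12.4% wholly below.

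**Figure D2:**
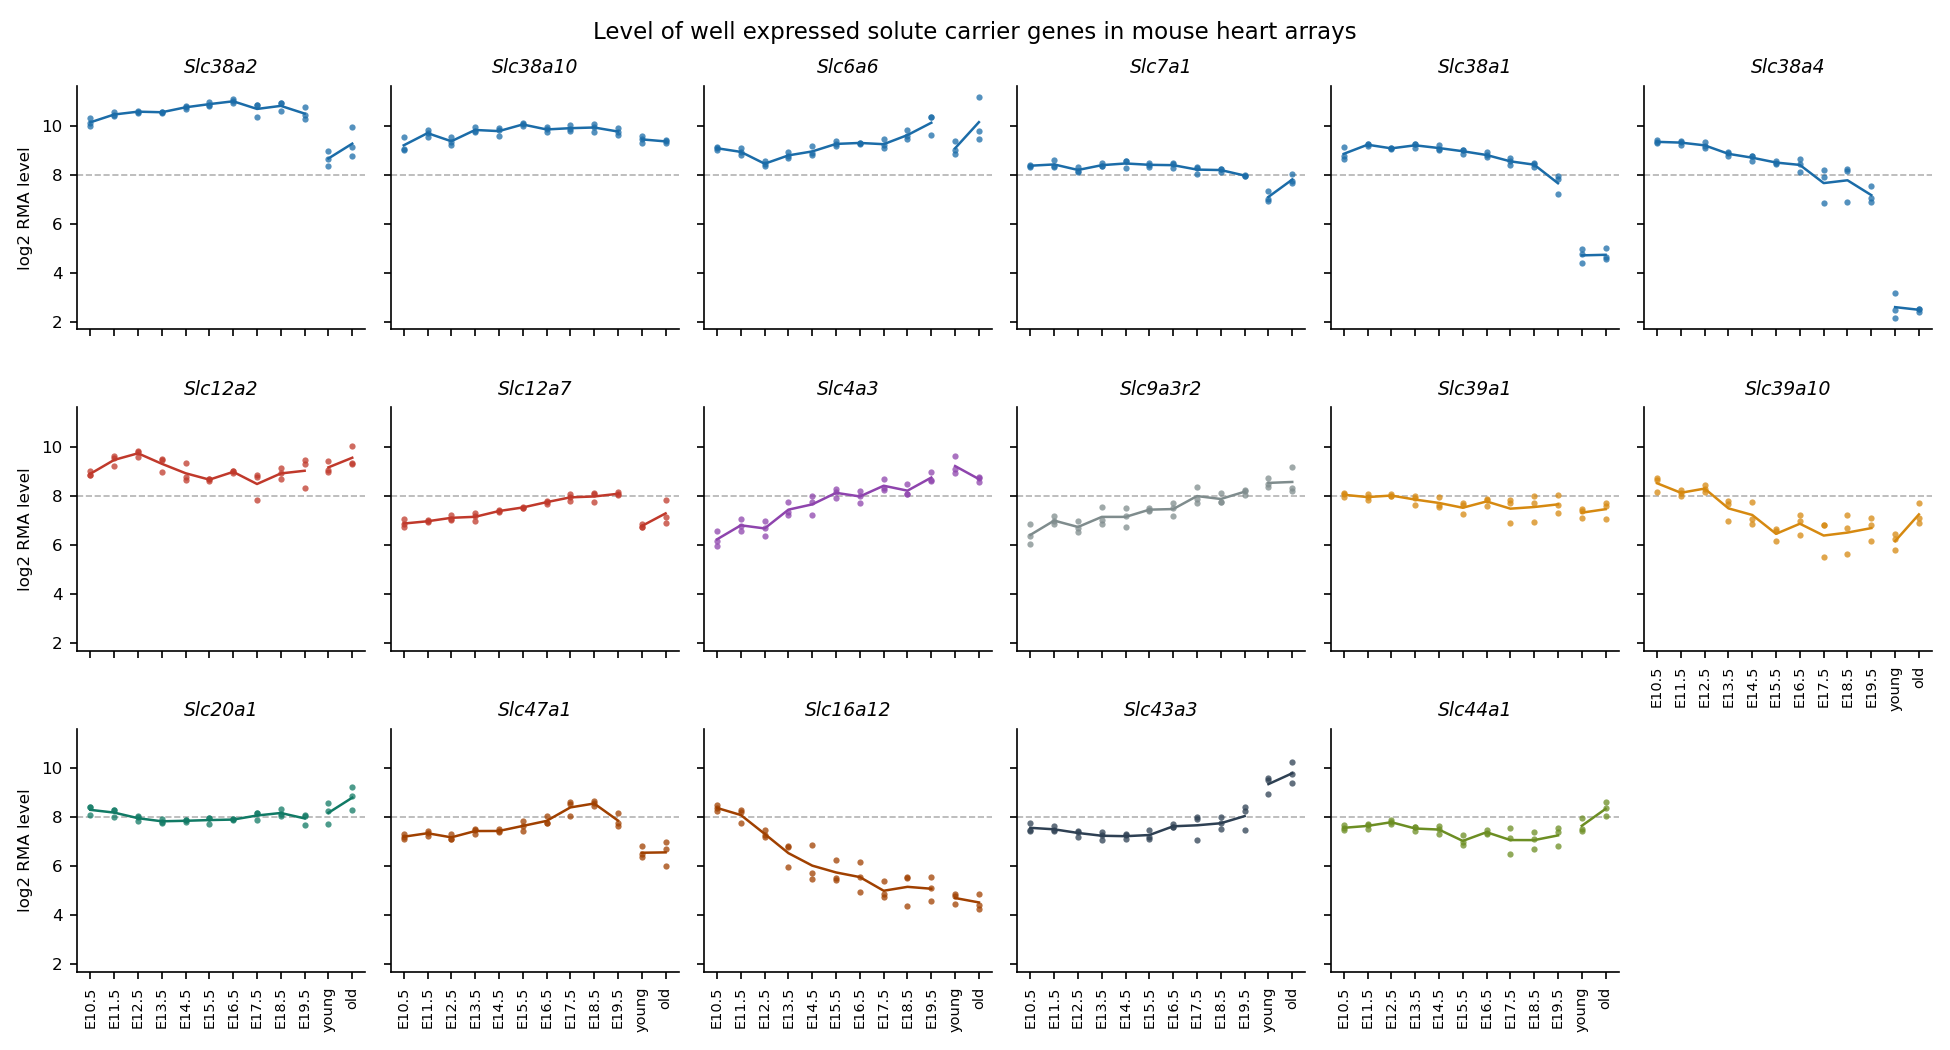
Log2 RMA level (vertical axis, same scale in all panels) of the 17 genes by stage (horizontal axis; young, young adult; old, old adult). Points are single arrays, lines join the means of 3 arrays, colours mark substrate groups and the dashed line the limit of 8. *Slc38a4* runs from 9.34 at E10.5 to 2.48 in old adults, while *Slc4a3* runs upward from 6.23 at E10.5 to 9.22 in young adults.

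The first question was how the fetal hearts differed from the young adult heart. A gene was called changed at an adjusted p below 0.05 and a difference above 1 in log2, and a differentially expressed gene (DEG) at the limits of the study, an adjusted p below 1e-05 and a log2 fold change above 2. At E10.5, 6 of the 17 genes were changed and higher than in young adults, 3 were lower, and 6 were DEGs. Of the 3273 genes passing the same level limit, 37.8% were higher, 15.8% lower and 21.8% DEGs. The median log2 difference was 0.12 over the 17 genes and 0.55 over those 3273. At E19.5, 6 genes were higher, 1 was lower and 2 were DEGs, beside 18.1%, 9.59% and 6.08% of the well expressed genes, with medians of 0.38 and 0.22. Both comparisons use the same 3 young adult arrays. A rule on the highest stage favours genes that vary, in the 17 and in the 3273 alike, and a gene that passed only in the stages where it was high had to be high there. *Slc12a7* passed through E19.5 alone and *Slc44a1* through old adults alone. *Slc16a12* passed only at E10.5 and E11.5, *Slc39a10* only from E10.5 to E12.5, and *Slc43a3* and *Slc9a3r2* only at E19.5 and in both adult groups. *Slc38a4* passed only from E10.5 to E16.5, *Slc38a1* and *Slc7a1* only from E10.5 to E18.5, and *Slc4a3* only at E15.5 and from E17.5 on. *Slc47a1* passed only at E17.5 and E18.5, and *Slc39a1* only at E10.5 and E12.5. *Slc20a1* passed at E10.5, E11.5, E17.5 and E18.5 and in both adult groups. Comparisons between a stage that chose one of these genes and a stage that did not are given without a test. This holds for the probe set that chose the gene. The counts of calls, here and below, include these genes, and the 3273 genes were counted in the same way. In whole hearts, fewer cells of a type and less RNA per cell cannot be told apart.

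**Figure D3:**
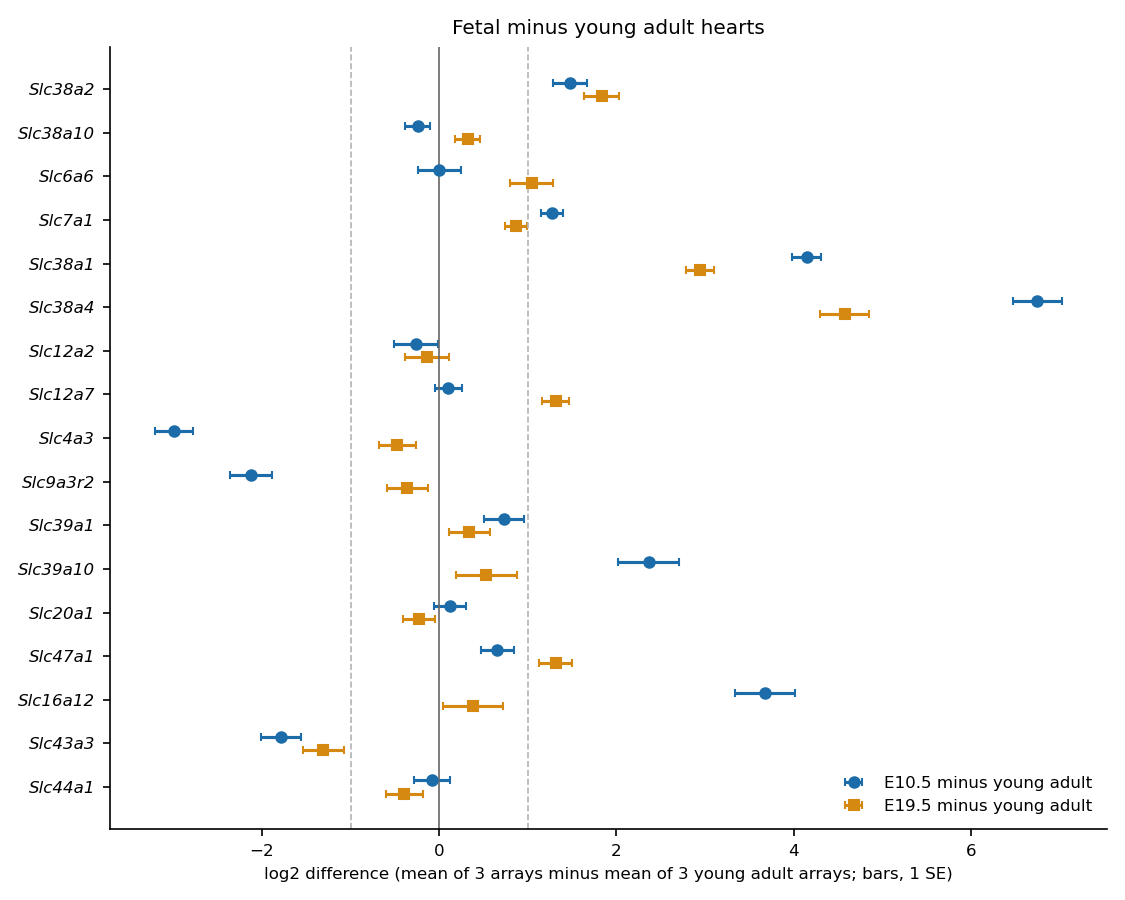
Log2 difference from young adult hearts (horizontal axis; bars, 1 SE) of each gene (vertical axis) at E10.5 (blue circles) and E19.5 (orange squares), 3 arrays against 3. Dashed lines mark a log2 difference of 1 in either direction. *Slc38a4* and *Slc38a1* lie farthest to the right at both stages, and *Slc4a3* lies farthest to the left at E10.5 with -2.99.

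*Slc38a4*, a sodium-coupled carrier of neutral amino acids (SNAT4) that is imprinted in the mouse, had the widest differences from young adults on the probe sets read here. Its level was 9.31, 9.28 and 9.43 on the E10.5 arrays, 7.54 (female), 7.06 (male) and 6.90 (mixed) at E19.5, and 2.49, 3.15 and 2.13 in young adults in the same order. The groups were far apart, and the adult values lay below the median of all probe sets on these arrays, where a fold depends on the background correction. The log2 difference from young adults was 6.75 ± 0.27 (SE, n = 3 and 3) at E10.5 (108-fold), a description, since the E10.5 level helped to choose the gene. At E19.5 the difference was 4.57 ± 0.27 (23.8-fold; adjusted p = 3.0e-14). A second probe set of the gene gave 3.96 and 2.54, smaller than the differences of *Slc38a1* on its brighter probe set. Stage means decreased from one day to the next up to E16.5, and at E17.5 and E18.5 the mixed arrays, with 6.85 and 6.90, lay more than 1 below the female and male arrays. These mixed arrays had the lowest SD of all 36 arrays, with 1.89 and 1.90. On them *Slc39a10* (5.51 and 5.63) and *Slc39a1* (6.88 and 6.95) were also the lowest of their stage, while *Slc4a3* (8.69 and 8.49) was the highest. As a description, *Slc38a4* at E10.5 exceeded E19.5 by 2.18 (4.52-fold).

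*Slc38a1* (SNAT1), a carrier of glutamine and other small neutral amino acids, had 8.76, 8.65 and 9.14 at E10.5, 7.93, 7.19 and 7.83 on the female, male and mixed E19.5 arrays, and 4.41, 4.95 and 4.76 in young adults. Fetal and adult arrays did not overlap. The difference was 4.15 ± 0.16 at E10.5 (17.7-fold), a description, since the E10.5 level helped to choose the gene. At E19.5 the difference was 2.95 ± 0.16 (7.71-fold; adjusted p = 3.0e-15). Its highest stage mean was 9.22 at E11.5. As a description, the level at E14.5 exceeded the mean of E10.5 and E19.5 by 0.84, short of the 2-fold limit. The other probe set had 2.72 and 1.70 against young adults.

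*Slc38a2* (SNAT2), a carrier of neutral amino acids whose transcript is known to respond to amino acid supply, had 10.11, 9.99 and 10.32 at E10.5, 10.77, 10.45 and 10.27 at E19.5 and 8.66, 8.99 and 8.34 in young adults. Unlike *Slc38a4*, its stage mean was highest late, with 11.0 at E16.5. It exceeded young adults by 1.48 ± 0.19 at E10.5 (adjusted p = 1.2e-07) and by 1.83 ± 0.19 at E19.5 (adjusted p = 8.1e-09). With arrays centred on the median of the probe sets with a mean above 5, which shifts single arrays by -0.31 to 0.32, the E10.5 difference was 0.95, and a second probe set gave 0.56 at E10.5 and 1.81 at E19.5, so the 2-fold call at E10.5 rests on the probe set and the scaling. *Slc38a10*, the fourth member of the family and a less studied carrier, was not changed in any comparison, with stage means from 9.20 at E10.5 to 10.1 at E15.5 and differences from young adults of -0.24 (adjusted p = 0.123) and 0.32 (adjusted p = 0.0829).

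*Slc38a1*, *Slc38a2* and *Slc38a4* are consecutive protein-coding genes on chromosome 15 in the RefSeq annotation of GRCm38.p6. Windows of the 250 bases before a RefSeq start were found for 12 of the 17 genes (20 windows), including *Slc38a2* and *Slc38a4*. These are shown because the neighbours were all lower in the adult than in the fetal heart, by very different amounts, and their windows differ in base composition. They are written 5′ to 3′ in the direction of transcription, with CG dinucleotides in capitals, for *Slc38a2* at chr15:96699729-96699978 and for the farthest upstream of 3 *Slc38a4* starts at chr15:97055957-97056206, both on the minus strand of GRCm38.p6.
Slc38a2: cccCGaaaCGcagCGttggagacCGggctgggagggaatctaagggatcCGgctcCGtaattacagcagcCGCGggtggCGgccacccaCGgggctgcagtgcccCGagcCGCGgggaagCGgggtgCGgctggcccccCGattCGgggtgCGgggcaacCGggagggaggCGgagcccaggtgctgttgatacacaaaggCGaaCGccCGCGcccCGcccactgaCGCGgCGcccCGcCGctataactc
Slc38a4: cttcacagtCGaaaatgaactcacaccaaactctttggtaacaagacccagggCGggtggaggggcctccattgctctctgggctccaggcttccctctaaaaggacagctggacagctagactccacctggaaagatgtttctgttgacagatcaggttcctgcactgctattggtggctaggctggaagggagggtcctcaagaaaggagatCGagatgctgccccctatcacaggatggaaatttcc
The *Slc38a2* window held 30 CG dinucleotides and 72.0% G and C, and 94.1% of 32841 such windows over all genes held fewer CG. The *Slc38a4* window held 3 and 52.8%, with 29% of windows below it, and the other 2 *Slc38a4* windows held 5 each. The median window held 6. On either strand, GGGCGG was found in both (32.7% of all windows), CCAAT in *Slc38a4* only (33.9%) and TATAAA in neither (12.4%). TGATGNAA, the letters of an amino acid response element, was in none of the 20 windows (3.4% of all windows). A match or its absence says nothing of binding.

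*Slc7a1* (CAT1), the carrier of arginine and lysine, was close to flat through gestation, with 8.36, 8.33 and 8.41 at E10.5, and lower in young adults with 7.01, 7.34 and 6.93. The E10.5 arrays lay above the young adult ones without overlap. As a description, since the E10.5 level helped to choose this gene, the difference at E10.5 was 1.27 ± 0.12, or 0.75 after median centring. At E19.5 the difference was 0.87 (adjusted p = 1.6e-06), below the 2-fold limit. A second probe set with a stage mean of 7.69 gave 1.73 and 1.15.

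*Slc6a6*, the taurine carrier, had another course. Its level was 9.10, 9.13 and 9.01 at E10.5, with a stage mean of 8.45 at E12.5, and 10.37, 10.36 and 9.63 on the female, male and mixed E19.5 arrays. Young adults had 8.85, 9.39 and 9.0, which did not overlap with E19.5 and surrounded E10.5. E19.5 exceeded young adults by 1.04 ± 0.25 (adjusted p = 0.00142) and E10.5 by the same amount (adjusted p = 9.8e-04), while E10.5 and young adults differed by 0.00 ± 0.25. Both calls sit at the 2-fold limit: without the female or the male E19.5 array each difference was 0.92, and against young adults it was 0.93 without the female young adult array and 0.86 after median centring. The second probe set, with a highest stage mean of 8.18, did not give these calls: E19.5 exceeded young adults by 0.63 (adjusted p = 0.261), and E10.5 minus E19.5 was -0.19 (adjusted p = 0.707). With the median of the probe sets the differences were 0.31 and -0.54. *Cdo1*, an enzyme of taurine synthesis, was 2.49 higher at E10.5 than at E19.5 (adjusted p = 9.3e-08) and lower at E19.5 than in young adults, with a log2 difference of -1.16 (adjusted p = 0.00383). *Csad*, the other enzyme of this list, was not changed.

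Of the cation-chloride cotransporters, *Slc12a7* (KCC4), which lets potassium and chloride leave the cell, had a higher stage mean on each successive fetal day. It had 6.84, 7.05 and 6.74 at E10.5, 8.15, 8.05 and 8.08 at E19.5, and 6.72, 6.88 and 6.73 in young adults. Its E19.5 level chose this gene, and as a description E10.5 minus E19.5 was -1.22 ± 0.15 and E19.5 minus young adult 1.32 ± 0.15. E10.5 minus young adult was 0.10 (adjusted p = 0.567). Its second probe set, which the choice did not use, had a highest stage mean of 4.64, below the expression limit of 5. It gave -0.50 (adjusted p = 0.0189) for E10.5 minus E19.5 and 0.60 (adjusted p = 0.00784) for E19.5 minus young adult, both below 2-fold. *Slc12a2* (NKCC1), which brings sodium, potassium and chloride in, had its highest stage mean of 9.74 at E12.5 and its lowest of 8.49 at E17.5. It had 8.87, 9.01 and 8.85 at E10.5, 9.32, 9.45 and 8.33 at E19.5 and 9.0, 9.44 and 9.07 in young adults, and these groups overlapped (difference at E10.5 -0.26 ± 0.25, adjusted p = 0.353). A second probe set gave -0.76 at E10.5 (adjusted p = 6.8e-04). Of 3 kinases that act on these carriers, *Stk39* was higher than in young adults at E10.5 by 1.90 and at E19.5 by 1.60. *Wnk1* and *Oxsr1* were higher at E10.5 by 0.65 (adjusted p = 4.4e-04) and 0.77 (adjusted p = 0.00213), below 2-fold, and were not changed at E19.5.

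*Slc4a3* (AE3), the chloride-bicarbonate exchanger typical of heart and brain, was lower early in gestation. Its level was 6.17, 5.94 and 6.59 at E10.5, 8.61, 8.66 and 8.99 at E19.5, and 9.62, 8.94 and 9.12 on the female, male and mixed young adult arrays. E10.5 lay below both other groups, and E19.5 overlapped with young adults by 1 array. The difference from young adults was -2.99 ± 0.21 at E10.5 (7.96-fold), and E10.5 minus E19.5 was -2.52. Both are descriptions, since the E19.5 and young adult levels helped to choose this gene and the E10.5 level did not. E19.5 minus young adult was -0.47 ± 0.21 (adjusted p = 0.0982). Its second probe set gave -3.20 at E10.5 and -0.87 at E19.5 against young adults. Among carbonic anhydrases, which make the bicarbonate it moves, *Car4* was lower at E10.5 by a log2 difference of -1.43 (adjusted p = 1.6e-08) and *Car2* was higher by 3.52 (adjusted p = 9.8e-10). *Car14* differed by -0.68 (adjusted p = 3.3e-04), below 2-fold. *Car2* is also a red cell gene, and 5 of 8 erythroid markers were higher at E10.5.

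The scaffold gene *Slc9a3r2* followed a like course, with 6.35, 6.04 and 6.85 at E10.5, 8.25, 8.21 and 8.06 at E19.5 and 8.5, 8.74 and 8.37 in young adults. The E10.5 arrays lay below the rest. E10.5 minus young adult was -2.12 ± 0.23, and all 6 probe sets of the gene were lower, by log2 differences from -2.12 to -1.21. E10.5 minus E19.5 was -1.76, or -0.94 with the median of its probe sets, and E19.5 minus young adult -0.36 (adjusted p = 0.27).

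*Slc16a12* (MCT12), a member of the monocarboxylate family that carries creatine, had its highest stage mean at E10.5. It had 8.5, 8.37 and 8.28 at E10.5, 5.58, 5.10 and 4.57 at E19.5, and 4.88, 4.47 and 4.77 in young adults. The E10.5 arrays stood clear, and E19.5 overlapped with young adults. The difference from young adults was 3.68 ± 0.34 at E10.5 (12.8-fold) and 0.38 ± 0.34 at E19.5 (adjusted p = 0.437), and E10.5 exceeded E19.5 by 3.30. Its E10.5 and E11.5 levels chose this gene, so the E10.5 differences are a description. The zinc importer *Slc39a10* (ZIP10) was also highest at E10.5, with 8.64, 8.75 and 8.17, against 7.09, 6.81 and 6.18 at E19.5 and 6.43, 5.79 and 6.26 in young adults. The E10.5 arrays did not overlap with the others. As a description, since its E10.5 level helped to choose it, *Slc39a10* exceeded young adults by 2.36 ± 0.34 and E19.5 by 1.83 ± 0.34. Its second probe set, with a highest stage mean of 4.77, below the expression limit of 5, gave 1.97 and 1.98.

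The hybridization controls moved the opposite way to *Slc39a10*. With their level as a covariate its E10.5 difference from young adults was -0.19, that of *Slc9a3r2* -0.68 and that of *Slc38a2* 0.98 (adjusted p = 0.0504), none of them called. As descriptions, the differences of *Slc38a4* (5.40), *Slc38a1* (4.06), *Slc16a12* (1.41) and *Slc4a3* (-1.68) stayed beyond 2-fold. Those of *Slc16a12* and *Slc4a3* no longer met the DEG limits. The same covariate added calls for *Slc12a2*, with -1.41 (adjusted p = 0.0124), and *Slc44a1*, with -1.07 (adjusted p = 0.0228). The mean level of 8 erythroid markers was 7.35 to 7.89 at E10.5 and 3.76 to 3.97 in young adults, and the part of red cells in the values of *Slc39a10* and *Slc16a12* was not tested. The other zinc importer, *Slc39a1* (ZIP1), had stage means between 7.32 and 8.05 and was not changed in any comparison. Of the zinc-binding partners, *Mt1* was lower at E10.5 than in young adults by a log2 difference of -1.56 (adjusted p = 1.5e-07), and *Mt2* was not changed. *Mtf1* differed by -0.81 (adjusted p = 3.6e-05), below 2-fold.

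*Slc16a12* and *Slc4a3* moved in opposite directions from E10.5 to the adult, and their windows are shown for that contrast, CG again in capitals, at chr19:34747329-34747578 on the minus strand and chr1:75546212-75546461 on the plus strand of GRCm38.p6.
Slc16a12: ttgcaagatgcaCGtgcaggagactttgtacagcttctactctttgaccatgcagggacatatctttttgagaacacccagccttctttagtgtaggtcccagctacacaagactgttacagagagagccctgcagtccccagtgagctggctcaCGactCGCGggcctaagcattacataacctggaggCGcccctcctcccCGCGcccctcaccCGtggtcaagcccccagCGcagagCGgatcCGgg
Slc4a3: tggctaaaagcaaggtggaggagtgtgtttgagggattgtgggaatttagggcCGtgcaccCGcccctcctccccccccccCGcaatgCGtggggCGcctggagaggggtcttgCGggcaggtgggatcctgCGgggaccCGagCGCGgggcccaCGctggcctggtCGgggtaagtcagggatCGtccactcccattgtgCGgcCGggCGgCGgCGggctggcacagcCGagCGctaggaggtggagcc
They held 11 and 20 CG dinucleotides, more than 64.4% and 82.0% of all windows. GGGCGG was found 2 times in *Slc4a3* and not in *Slc16a12*.

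*Slc47a1* (MATE1), which exchanges organic cations for protons, had its highest stage mean at E18.5. Stage means went from 7.21 at E10.5 to 8.57 at E18.5 and 7.87 at E19.5, where the arrays had 7.77, 7.64 and 8.2. Young adults had 6.81, 6.48 and 6.37, below every fetal array. E19.5 minus young adult was 1.32 ± 0.18 (adjusted p = 1.3e-06), and E10.5 minus young adult 0.65 ± 0.18 (adjusted p = 0.00301), below the 2-fold limit. E10.5 minus E19.5 was -0.66 (adjusted p = 0.00445), and it passed the 2-fold limit after median centring (-1.0), after quantile renormalization (-1.05) and with the hybridization control covariate (-1.01).

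*Slc43a3*, a carrier of purine nucleobases, was the one gene counted as lower at both fetal stages. At E10.5, a stage that did not choose this gene, the difference is a description. It had 7.49, 7.79 and 7.44 at E10.5, 8.43, 8.25 and 7.48 at E19.5 and 9.52, 9.61 and 8.94 in young adults. No fetal array reached the adult ones. The difference was -1.79 ± 0.23 at E10.5 and -1.31 ± 0.23 at E19.5 (adjusted p = 3.8e-05). Endothelial, macrophage and adipocyte markers were higher in the adult as well. At E10.5, 3 of 4 endothelial, 7 of 7 macrophage and 4 of 5 adipocyte markers were lower than in young adults. At E19.5 it was 1 of 4, 7 of 7 and 3 of 5. Over the E10.5, E19.5 and young adult arrays in turn, the mean endothelial level was 5.48 to 6.0, 5.96 to 6.72 and 6.66 to 6.96, and the mean macrophage level 3.74 to 4.01, 4.93 to 4.99 and 7.5 to 7.56. The part of these cell types in the *Slc43a3* level was not tested. *Adk*, the adenosine kinase of the nucleoside list, was higher at E10.5 by 1.25 (adjusted p = 2.7e-04), and *Ada* by 0.96 (adjusted p = 4.8e-04), below 2-fold.

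The phosphate carrier *Slc20a1* (PiT-1) had 8.10, 8.40 and 8.41 at E10.5, 8.10, 8.07 and 7.70 at E19.5 and 8.58, 8.25 and 7.73 in young adults, and the groups overlapped. Its difference at E10.5 was 0.12 ± 0.18 (adjusted p = 0.57). A second probe set disagreed, with 2.58 at E10.5 (adjusted p = 1.5e-09) and 1.44 at E19.5 (adjusted p = 1.1e-04), so the probe sets of this gene gave different answers. The choline carrier *Slc44a1* (CTL1) had 7.57, 7.67 and 7.47 at E10.5, 7.57, 7.39 and 6.83 at E19.5 and 7.99, 7.45 and 7.53 in young adults, with overlap and differences of -0.08 (adjusted p = 0.737) and -0.39 (adjusted p = 0.164).

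Over the 25 measured partner genes of the carriers, 8 were higher and 5 lower at E10.5 than in young adults, and 4 and 3 at E19.5. Of the 3273 well expressed genes, 37.8% were higher and 15.8% lower at E10.5, and 18.1% and 9.59% at E19.5. The partners were not chosen by level. In the amino acid list, *Asns* (asparagine synthetase), a target of the amino acid response, was 1.88 higher at E10.5 than in young adults (adjusted p = 5.3e-11) and differed by -0.12 at E19.5 (adjusted p = 0.645). *Atf4*, the factor of that response, was 0.82 higher at E10.5 (adjusted p = 2.4e-04), below 2-fold, and was not changed at E19.5. Of 5 iron genes, which have no carrier among the 17, *Tfrc* was higher and *Fth1* and *Hamp* were lower than in young adults at both fetal stages. Of 3 carnitine enzymes, *Crat* was lower at E10.5 and *Cpt1a* was higher at E19.5. *Emb*, a chaperone of monocarboxylate carriers, was higher at E10.5 by 1.90 (adjusted p = 6.9e-10), and *Bsg* was not changed.

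Within the fetal period, E10.5 exceeded E19.5 for 4 genes (*Slc16a12*, *Slc38a4*, *Slc39a10* and *Slc38a1*, the last by 1.2) and was below it for 4 (*Slc4a3*, *Slc9a3r2*, *Slc12a7* and *Slc6a6*), and 3 were DEGs (*Slc16a12*, *Slc38a4* and *Slc4a3*). Of the well expressed genes, 23.7% were higher, 11.4% lower and 7.97% DEGs. The counts include *Slc12a7*, *Slc16a12*, *Slc39a10*, *Slc9a3r2*, *Slc38a4*, *Slc38a1* and *Slc4a3*, each chosen at a stage compared here and not at the other. The call of *Slc38a1* ended after median centring (0.86), after quantile renormalization (0.79) and without the male E19.5 array (0.97), and with the control covariate the differences of *Slc39a10* (0.42), *Slc9a3r2* (-0.97) and *Slc6a6* (-0.91) fell short of the limits. With the median of the probe sets of a gene, *Slc38a2* was called lower (-1.26) and *Slc20a1* higher (1.14) at E10.5. The median difference was -0.12 over the 17 genes and 0.31 over the well expressed genes. Of the 25 partners, 6 were higher and 4 lower, beside the 23.7% and 11.4% of the well expressed genes.

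A further question was whether midgestation stood apart from both ends of the fetal period. E14.5 minus the mean of E10.5 and E19.5 gave 0 genes changed and higher, 0 lower and 0 DEGs in limma, beside 1.65%, 2.26% and 0.183% of the well expressed genes. At an unadjusted p below 0.05 there were 7 genes, beside 42.4% of the well expressed genes. At an adjusted p below 0.05 there were 2, beside 22.4%: *Slc38a1* with 0.84 and *Slc6a6* with -0.65 (adjusted p = 0.0491). *Slc38a1* was chosen at E10.5 and E14.5 but not at E19.5, so its value is a description. Without the mixed E14.5 array, *Slc16a12* was counted as lower with -1.13, a description, since its E10.5 level helped to choose it.

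In old adults, 2 of the 17 genes were changed and higher than in young adults, none was lower and none was a DEG, beside 1.59%, 1.22% and 0% of the well expressed genes. In limma, 8 of the 17 had an unadjusted p below 0.05 and 6 an adjusted p below 0.05, beside 31.5% and 11% of the well expressed genes. *Slc44a1*, chosen by its old adult level, is in both counts. *Slc6a6* had 9.47, 9.80 and 11.17 on the female, male and mixed old arrays against 8.85, 9.39 and 9.0 in young adults. The groups did not overlap, and the mixed old array stood far above the others. The difference was 1.07 ± 0.25 (adjusted p = 0.00765), and without the mixed old array it was 0.55 (adjusted p = 0.0741). Without the female young array it was 0.95, and after median centring 0.92, both short of 2-fold. A second probe set gave 1.44 (adjusted p = 0.0257), and the median of the probe sets 0.71 (adjusted p = 0.0322). *Slc39a10* had 6.90, 7.12 and 7.73 against 6.43, 5.79 and 6.26, also without overlap, and a difference of 1.09 ± 0.34 (adjusted p = 0.0472). With the hybridization control level as a covariate this was 0.19 (adjusted p = 0.726), without the mixed old array 0.85 (adjusted p = 0.181), and the call was also lost without the male old (1.16), male young (0.90) or mixed young array (1.14) and under quantile renormalization (0.91) or median centring (0.95).

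Another 4 genes had an adjusted p below 0.05 with a difference below 2-fold. *Slc7a1* had 7.66, 7.72 and 8.02 in old adults against 7.01, 7.34 and 6.93, a difference of 0.71 ± 0.12 (adjusted p = 7.7e-04) without overlap, and its second probe set gave 0.67 (adjusted p = 0.0111). *Slc44a1* had 8.62, 8.37 and 8.05 against 7.99, 7.45 and 7.53 (0.69 ± 0.21), a description, since its old adult level chose it. Its second probe set gave 0.48 (adjusted p = 0.0251). *Slc20a1* had 8.29, 8.89 and 9.23 against 8.58, 8.25 and 7.73 (0.62 ± 0.18; adjusted p = 0.0355), with overlap, and *Slc12a7* differed by 0.52 (adjusted p = 0.0368). The median difference was 0.39 over the 17 genes and 0.15 over the well expressed genes. Of the 5 genes whose embryonic and adult arrays did not overlap, *Slc38a4*, *Slc38a1* and *Slc47a1* had old minus young differences of -0.11 ± 0.27, 0.02 ± 0.16 and 0.02 ± 0.18, *Slc38a2* had 0.61 ± 0.19 (adjusted p = 0.0533) and *Slc43a3* 0.44 ± 0.23 (adjusted p = 0.241). None of the 25 partner genes was changed with age in either direction in limma. An adjusted p below 0.05 with a difference below 2-fold was found for *Car14* with -0.81 (adjusted p = 0.00138), *Atf4* with 0.74 (adjusted p = 0.0105) and *Mt2* with 0.95 (adjusted p = 0.0403). On the mixed old array the mean endothelial level was 8.02, against 7.15 and 7.45 on the other old arrays and 6.66 to 6.96 in young adults. The same array had an erythroid level of 4.76 (3.76 and 3.83 on the other old arrays), a fibroblast level of 7.36 (8.13 and 8.39) and a cardiomyocyte level of 11.1 (11.7 and 12.0). With age 1 of 4 endothelial markers (*Pecam1*, 1.19) and 1 of 3 mesothelial and epicardial markers (*Wt1*, 1.84) were higher and 1 of 4 fibroblast markers (*Col1a1*, -1.53) was lower, and 0 of 5 cardiomyocyte, 8 erythroid, 7 macrophage and 5 adipocyte markers were changed. The part of these cells in the values was not tested.

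**Figure D4:**
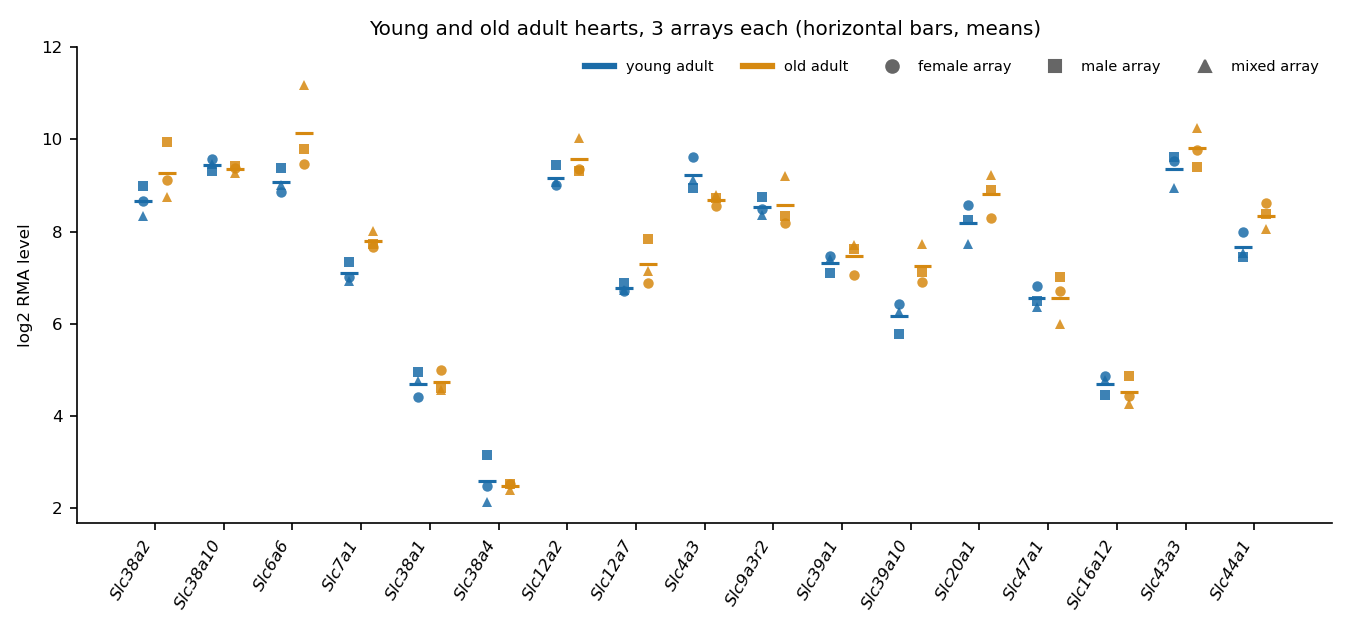
Log2 RMA level (vertical axis) of the 17 genes (horizontal axis) on the 3 young adult (blue) and 3 old adult (orange) arrays; circles are female, squares male and triangles mixed arrays, and short lines are means. *Slc6a6* on the mixed old array, at 11.17, is the point farthest from its group, and *Slc38a1* and *Slc38a4* overlap between the ages.

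Between the sexes, 0 of the 17 genes had an adjusted p below 0.05 in limma over 9 pairs of male and female arrays from E13.5 on with stage as a block, beside 0.122% of the well expressed genes. At an unadjusted p below 0.05 there was 1, beside 10.1%: *Slc39a10*, with a male minus female difference of -0.30 ± 0.095 (SE; adjusted p = 0.53). The count was also 0 with E12.5 added and with E15.5 left out, the latter tried after *Xist* had been seen on its male array.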

How the data were processed

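The values were used as deposited: the authors made log2 intensities by robust multi-array average (RMA), and the submitters' processing notes name Affymetrix Expression Console and Partek 6.6. RMA brings the arrays to a similar scale, so differences are relative to the other genes of a heart. The spread was not equal: the SD of an array ran from 1.89 to 2.24, with 2.165 to 2.238 at E10.5 and 1.921 to 1.973 in young adults. A difference in level between probe sets is no ratio of transcripts, although levels served to choose probe sets and genes. A gene was read from the probe set with the highest mean over all 36 arrays. Stages were compared in R 4.3.3 with limma 3.58.1, by a model of the 12 stage means fitted to every array and all 45101 probe sets. The p values of a comparison were adjusted over all probe sets by the Benjamini-Hochberg procedure. Male and female arrays were compared with stage as a block, E12.5 left out. The number of arrays limits the precision. The share of genes called was taken over 3273 genes, 1 probe set each, with a stage mean above 8.

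The genes, substrate groups, partner and marker lists were chosen with earlier results of these data known. Array values are given for genes with the 5 highest or lowest differences called without overlap in a comparison, for the gene with the highest mean of each substrate group, for a fixed list of carriers and for those next to the limit, and other stage means where a course is described. The embryonic against adult overlap and the second probe sets were added after the values were seen. Promoter windows and gene order come from RefSeq (GRCm38.p6). The fit was tested on simulated data. Alternatives were median centring, quantile renormalization, an expression filter before the model, robust variances with a trend, the hybridization controls or the title prefix of the labels as a covariate, the arrays of a comparison alone, the median of a gene's probe sets, other limits for choosing the genes, each array left out in turn and a replicate block. The labels' sex was checked for pairing: deviations of same-labelled E19.5 and young adult arrays correlated at 0.208, 0.022 and 0.075, so the arrays were not treated as pairs. No column of values was left unused.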

Additional observations from a re-analysis of the deposited data

How the results depend on the processing

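With a limit of 7.5 in place of 8, which takes in 29 carriers and 4439 genes in all, 14 carriers were higher at E10.5 than in young adults and 10 were DEGs (38% and 21.2% of those genes), and 9 were higher at E10.5 than at E19.5 with 5 DEGs (24.4% and 7.55%). With genes chosen by their mean over all arrays, which leaves 7, the counts of higher, lower and DEG were 3, 0 and 1 at E10.5 and 3, 0 and 1 at E19.5 against young adults, 1, 1 and 0 for E10.5 against E19.5, and 1 was higher in old adults. No share over all genes chosen in that way was taken, so these counts have nothing beside them. The same holds for every setting that follows, so a drop in a count cannot be set against that of other genes. With the hybridization controls as a covariate, DEGs numbered 2 at E10.5 against young adults and 0 against E19.5, and 1 gene was higher in old adults. With the title prefix, which changes from the E16.5 female array on, these counts were 3, 0 and 1. With only the arrays of a comparison, 0 genes were DEGs between E10.5 and E19.5 and 0 were higher in old adults. With the median of a gene's probe sets, 2 were lower at E10.5 than at E19.5 and 0 higher in old adults. The higher count in old adults was also 0 under median centring, under quantile renormalization and with a replicate block by sex label. It ran from 0 to 2 with each adult array left out, and was 0 without the mixed old array. The block changed no other count by over 1.5 times. The lower count at E14.5 ran from 0 to 1, and was 1 without the mixed E14.5 array.

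The difference of *Slc39a10* between E10.5 and young adults turned from 2.36 to -0.19 with the control covariate, and that of *Slc20a1* at E19.5 from -0.23 to 1.44 with the median of its probe sets. The cause was not tested, except that the *Slc20a1* probe sets disagree. The control level changes with stage, so a covariate also removes part of a stage difference. The 3 arrays per stage, a single strain and whole hearts are the limits of every comparison here, and low values such as *Slc38a4* in adults have no detection call.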
